A study of Sus scrofa with 16 samples.

Results

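Solute carriers are membrane proteins that move nutrients, metabolites and ions across the cell surface and the membranes of organelles without hydrolysing ATP themselves, as uniporters, cotransporters or exchangers. They are numbered by family, so that SLC2 proteins carry hexoses, SLC16 proteins carry lactate and other monocarboxylates, and SLC25 proteins connect the mitochondrial matrix with the cytosol. In skeletal muscle they bring in glucose, fatty acids, creatine and amino acids, export lactate, and exchange ADP, phosphate and reducing equivalents across the inner mitochondrial membrane. The genes described here were all probe sets with a single gene symbol beginning with SLC and a digit whose log2 value reached 4 in 4 or more of the 16 arrays. There were 60 such probe sets for 53 genes, out of 176 solute carrier probe sets for 120 genes on the array and out of 11467 probe sets of any gene that passed the same filter.

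The arrays were Affymetrix porcine arrays hybridised with total RNA from diaphragm, the main breathing muscle, and from psoas major, a loin muscle. Both muscles came from each of 8 Iberian pigs slaughtered at 211 days of age, so that there was 1 array per muscle and animal. On the high feeding level were animals 1 and 4 (males) and animals 6 and 7 (females). Under 20% feed restriction were animals 2 and 3 (males) and animals 5 and 8 (females). The sources used here do not say whether the males were castrated or when restriction began. No allele, transgene or drug is named in the labels. All pigs had the same pelleted diet before the restriction.

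Array medians lay between 3.56 and 3.62 and maxima between 15.7 and 15.9 on the log2 scale. The skeletal muscle markers were present in both muscles: 6 of the 8 listed genes were on the array, and their mean ranged from 14.3 to 14.4 in diaphragm and from 14.3 to 14.5 in psoas. Of these 6 markers 1 was called higher and 1 lower in psoas. Between the muscles, 6 of 9 slow fibre markers tested were lower in psoas and 4 of 5 fast fibre markers were higher. Markers of other cells also differed. Of those tested, 6 of 6 endothelial, 3 of 4 adipocyte, 3 of 5 fibroblast, 2 of 4 immune, 1 of 2 Schwann cell and 7 of 7 hepatocyte markers were lower in psoas. Of 4 smooth muscle markers 1 was higher and 1 lower, 1 fibroblast marker was higher, and 0 of 3 erythrocyte markers were called. Over all tested probe sets 14.6% were called higher and 12.4% lower in psoas. The mean of the endothelial list ranged from 6.28 to 6.76 in diaphragm and from 5.73 to 6.18 in psoas, that of the adipocyte list from 7.28 to 8.49 and from 6.72 to 7.06, and that of the hepatocyte list from 3.40 to 6.93 and from 3.01 to 3.52. The hepatocyte list mean was thus below 4 on every psoas array. Markers that passed the filter only through diaphragm had to be lower in psoas, so their count is no support for a difference. Both mesothelial markers on the array were below 4. The part of these cells in the solute carrier differences was not tested, and in whole muscle fewer cells of a type and less RNA per cell cannot be told apart. The gap between the 3' and the 5' actin control probe set, a sign of RNA quality, was 3.81 ± 0.45 (SD, n = 8) in diaphragm and 3.45 ± 0.25 (SD, n = 8) in psoas. In diaphragm it fell into separate ranges, 1 for animals 1, 2, 3 and 5 and 1 for animals 4, 6, 7 and 8.

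Of the 60 probe sets, 57 belonged to carriers or their subunits. The other 3 carry the letters SLC only through their names: SLC2A4RG encodes a transcription factor, and SLC9A3R1 and SLC9A3R2 encode PDZ scaffold proteins. By substrate there were 5 probe sets for sugars, 6 for amino acids and creatine, 2 for monocarboxylates and fatty acids, 20 for the mitochondrial carrier family, 10 for nucleosides and nucleotide sugars, 4 for vitamins, lipids and organic ions, 9 for metals and 1 for inorganic ions. At 48 of the 60 probe sets all 16 arrays were at or above 4, and at none were all arrays of a muscle below 4. Genes with more than 1 member probe set numbered 7. They were SLC25A3, SLC25A37, SLC30A5, SLC35F5, SLC37A4, SLC41A1 and SLC44A2.

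The probe sets just inside the threshold, by the level that 4 arrays reached, were those of SLC39A7 (4.01), SLC27A1 (4.07), SLC11A2 (4.12), SLC25A33 (4.17) and SLC5A6 (4.42). Just outside were SLC7A7 (3.96), a second probe set of SLC35A4 (3.90), a second of SLC3A1 (3.89), another of SLC44A2 (3.85) and SLC35C2 (3.81). Of the 116 solute carrier probe sets that did not pass, 21 belonged to genes that had another, passing probe set. The other 95 stood for 67 genes, and 90 of them were below 4 on every array.

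A list of 48 carriers known from skeletal muscle showed how much of the transport system the array covered. A passing probe set was found for 20 of them, 6 had probe sets below the filter only, and 22 had no probe set with that single symbol, among them the lactate carrier gene SLC16A1, the taurine carrier gene SLC6A6 and the amino acid carrier genes SLC7A5 and SLC38A2. The insulin-regulated glucose transporter gene SLC2A4 (GLUT4) had 3 probe sets, whose means over 16 arrays were 2.07, 2.24 and 2.45. The basal glucose transporter gene SLC2A1 (GLUT1) had a mean of 2.83, and the carnitine transporter gene SLC22A5 a mean of 3.55. These 3 genes were not tested, and probe sets at that level say nothing on the amount of their transcripts.

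The first comparison was of psoas with diaphragm, with sex and feeding level as covariates over 16 arrays. A probe set is called where limma's adjusted p over all 11467 probe sets is under 0.05, and every adjusted p below is limma's. Of the 60 solute carrier probe sets, 12 (11 genes) were higher in psoas and 7 were higher in diaphragm, where over all tested probe sets 14.6% were called higher in psoas and 12.4% higher in diaphragm (27.0% in both directions). The called share of the solute carriers was 31.7%. At an unadjusted p under 0.05 were 28 of 60, beside 39.7% of all tested. Their median difference was 0.06 log2 units beside 0.02 over all tested probe sets, and their median absolute difference was 0.32 beside 0.20. Of the 7 higher in diaphragm, SLC2A5 and SLC22A3 passed the filter only through diaphragm, with 3 of 8 psoas arrays at or above 4, and so had to differ. The residual SD between arrays, after muscle, sex and feeding level were fitted as separate terms, had a median of 0.31 over the solute carriers and 0.24 over all tested probe sets.

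**Figure D1:**
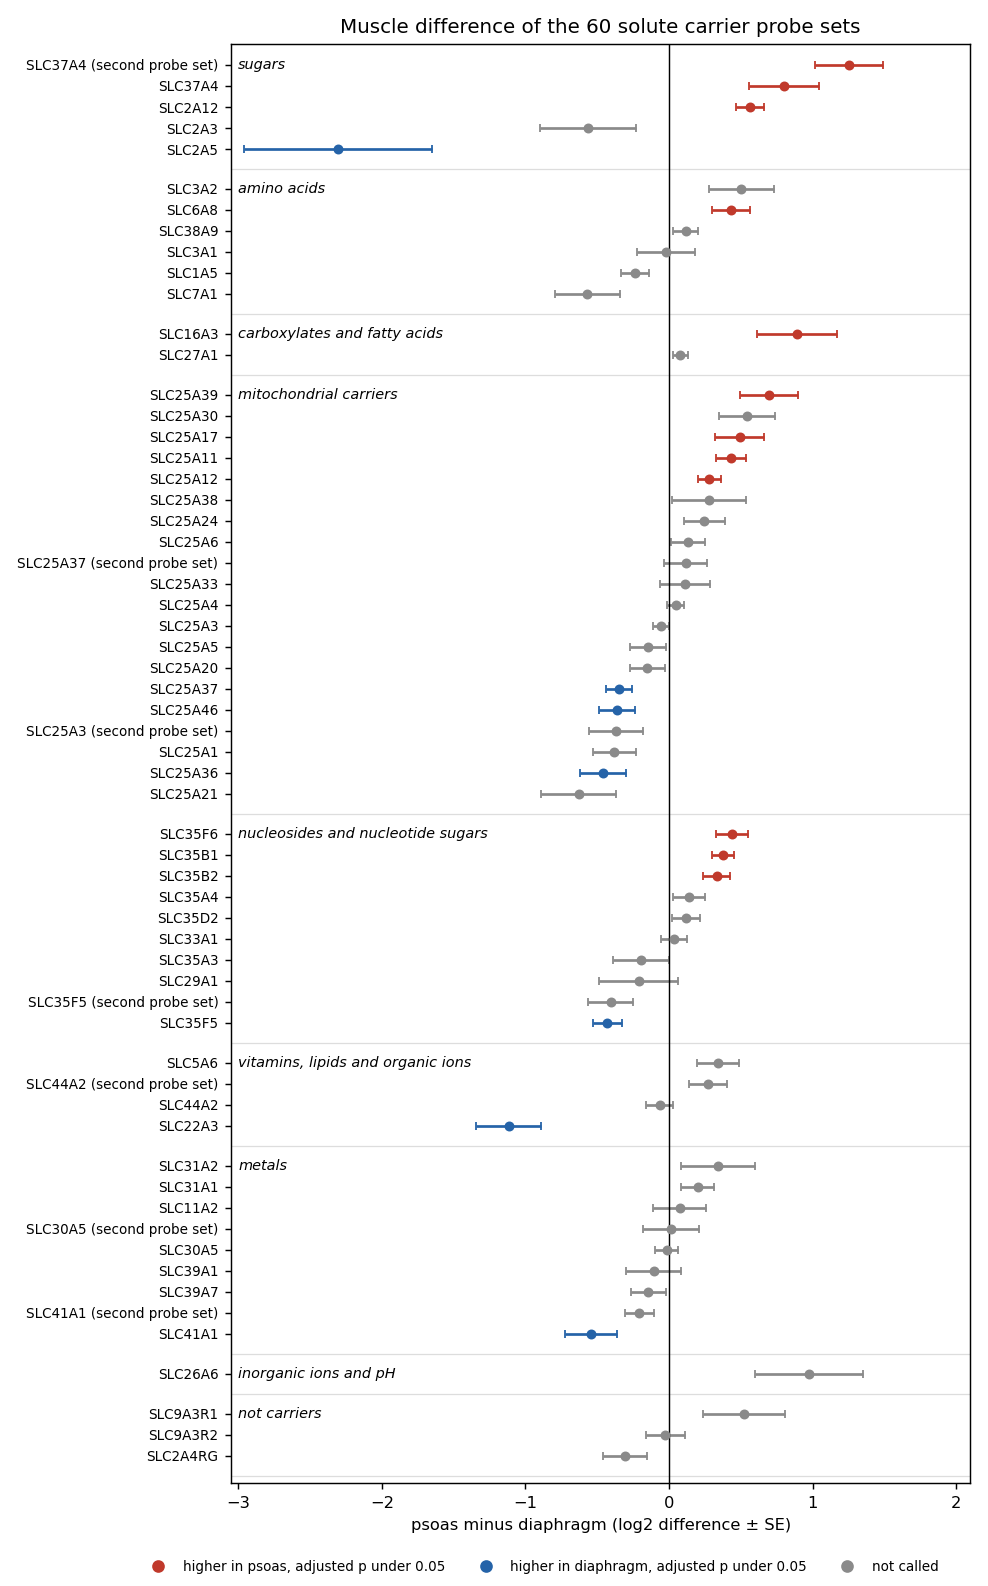
Psoas minus diaphragm difference (log2, with SE from limma) of each of the 60 solute carrier probe sets, ordered within substrate groups, with points coloured by call. The sugar carriers range from -2.31 (SLC2A5, mostly below 4 in psoas) to 1.26 (second probe set of SLC37A4), and the metal carriers from -0.54 to 0.34.

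Of the 5 sugar carrier probe sets, 3 were higher in psoas and 1 in diaphragm. SLC37A4, which carries glucose 6-phosphate into the endoplasmic reticulum, was higher in psoas at both of its probe sets. The second one had a lowest, median and highest value of 5.02, 5.32 and 6.44 in diaphragm and of 5.85, 6.70 and 7.62 in psoas. The psoas array was the higher one in 8 of 8 animals, although the ranges over animals overlapped. The difference was 1.26 ± 0.24 (SE, n = 8 arrays a muscle), or 2.39-fold, with an adjusted p of 0.00169. The first probe set went from 5.57, 6.01 and 7.31 in diaphragm to 6.14, 6.82 and 7.99 in psoas, again higher in 8 of 8 animals, with a difference of 0.80 ± 0.25 (adjusted p = 0.0261).

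SLC2A12 (GLUT12), a facilitative glucose transporter, was likewise higher in psoas in 8 of 8 animals. Its lowest, median and highest values were 5.78, 6.20 and 6.39 in diaphragm and 6.32, 6.72 and 7.13 in psoas. The psoas arrays of animals 1 and 7 lay within the diaphragm range and the other 6 above it. The difference was 0.56 ± 0.10 (adjusted p = 0.00107). SLC2A3 (GLUT3), a high-affinity glucose transporter best known from neurons, had means of 5.52 ± 0.74 (SD, n = 8) in diaphragm and 4.95 ± 0.70 (SD, n = 8) in psoas and was not called (adjusted p = 0.220).

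SLC2A5 (GLUT5), the fructose transporter, ran the other way. In diaphragm animals 1 to 8 had values of 5.02, 5.68, 5.61, 7.91, 4.85, 5.89, 7.90 and 7.53. In psoas the same animals had 2.65, 2.82, 2.99, 6.87, 2.77, 4.85, 3.36 and 5.65. Every animal was lower in psoas, but the animals spread widely in both muscles, and the psoas arrays of animals 4 and 8 lay within the diaphragm range. The fitted difference was -2.31 ± 0.66 (adjusted p = 0.0180). In psoas 3 of 8 arrays were at or above 4, so that the probe set passed the filter only through diaphragm. With psoas values under 4 set to 4 the level was at least 3.09-fold lower in psoas. Values under the array median are compressed by the background correction.

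In diaphragm the spread of SLC2A5 between animals went with the diaphragm actin gap, the larger gaps having the lower values. Animals 1, 2, 3 and 5, with gaps of 4.07 to 4.33, lay between 4.85 and 5.68 and animals 4, 6, 7 and 8, with gaps of 3.35 to 3.49, between 5.89 and 7.91. In psoas the same animals lay between 2.65 and 2.99 and between 3.36 and 6.87. The SLC2A5 values of these sets overlapped in neither muscle, but their psoas actin gaps did, at 3.29 to 3.71 and 3.07 to 3.85. The part of RNA quality in these values was not tested. Restricted animals made up 3 of the 4 in the first set and 1 of the 4 in the other. Split by the diaphragm gap in both muscles, these sets of animals did not overlap at 5 of the 60 solute carrier probe sets in diaphragm, beside 11.4% of all tested probe sets, and in psoas 2 of 60, beside 1.88%. The others were SLC3A1, SLC2A3, SLC35F6 and SLC25A38 in diaphragm and SLC25A38 in psoas. With the actin gap as a covariate the SLC2A5 difference between muscles was -3.03 (adjusted p = 0.00634), and with animals as blocks it was -2.31 with an adjusted p of 7.51e-04. The probe set passed the filter only through diaphragm and so had to differ, and these fits add no support for the difference.

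**Figure D2:**
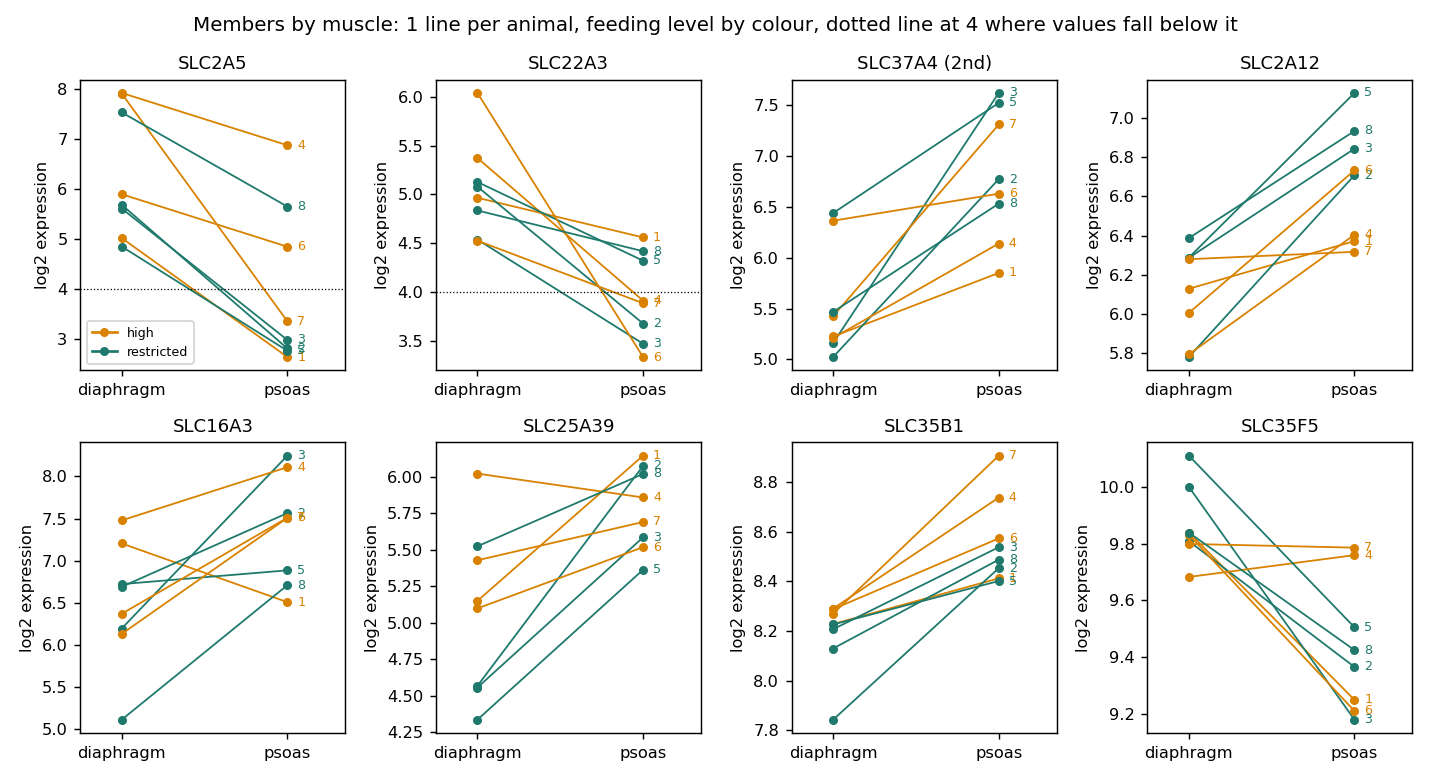
Log2 expression of 8 solute carrier probe sets in diaphragm and psoas, with 1 line per animal (number at the right end), coloured by feeding level, and axes that do not start at 0. Lines fall in 8 of 8 animals for SLC2A5 and SLC22A3 and rise in 8 of 8 for the second SLC37A4 probe set, SLC2A12 and SLC35B1, while SLC16A3, SLC25A39 and SLC35F5 each have an animal that runs the other way.

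Among carriers of monocarboxylates and fatty acids, SLC16A3 (MCT4), through which glycolytic fibres export lactate, was higher in psoas. Its lowest, median and highest values were 5.11, 6.53 and 7.48 in diaphragm and 6.51, 7.51 and 8.25 in psoas. Animal 1 went the other way, from 7.20 in diaphragm to 6.51 in psoas, and the other 7 were higher in psoas. The difference was 0.89 ± 0.28 (adjusted p = 0.0269). The call was lost without animal 2, 3, 6 or 7, with adjusted p from 0.0610 to 0.0934. BSG, the chaperone that takes MCT4 to the cell surface, had a difference of -0.07 and was not called. SLC27A1 (FATP1), a fatty acid transporter, had means of 4.02 ± 0.05 and 4.09 ± 0.05 (SD, n = 8 each), close to the floor of the filter, and was not called.

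Of the 6 amino acid carrier probe sets 1 was called. It was SLC6A8, the creatine transporter, with 7.90, 8.21 and 8.69 as lowest, median and highest value in diaphragm and 8.22, 8.79 and 9.02 in psoas. Psoas was higher in 8 of 8 animals, although animal 5 had 8.31 in both muscles after rounding, and the ranges overlapped. The difference was 0.43 ± 0.13 (adjusted p = 0.0261), and the call was lost without animal 2, 3, 6 or 8 (adjusted p from 0.0512 to 0.0897) and with the actin covariate (0.106). GAMT, which makes creatine, was 0.90 higher in psoas, in 8 of 8 animals (adjusted p = 3.8e-05). The creatine kinase genes CKM (adjusted p = 0.963) and CKMT2 (difference -0.11) were not called.

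SLC7A1 (CAT1), which carries arginine and lysine, was lower in psoas in 8 of 8 animals but was not called in the unblocked fit. Its values were 5.60, 6.92 and 7.39 in diaphragm and 5.59, 6.29 and 6.82 in psoas, a difference of -0.57 ± 0.23 (adjusted p = 0.0751). With animals as blocks its adjusted p was 0.0126. SLC3A2 (CD98 heavy chain), the partner subunit of amino acid exchangers, had means of 5.10 ± 0.41 and 5.61 ± 0.61 (SD, n = 8 each) and was not called (adjusted p = 0.110). The glutamine carrier SLC1A5 (-0.24), the lysosomal amino acid sensor SLC38A9 (0.12) and SLC3A1 (-0.02), the heavy subunit of a cystine carrier, were not called.

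The mitochondrial carrier family gave 20 probe sets for 18 genes, of which 4 were higher in psoas and 3 in diaphragm. The carriers of oxidative phosphorylation were not called. SLC25A4, the muscle adenine nucleotide translocase, had means of 14.31 ± 0.14 in diaphragm and 14.36 ± 0.11 in psoas, and the phosphate carrier SLC25A3 had 13.72 ± 0.09 and 13.66 ± 0.08 (SD, n = 8 each). Both lay near the upper end of the scale, where differences may be compressed, which was not tested. The second probe set of SLC25A3 had lower values, 6.25 ± 0.48 and 5.88 ± 0.50 (SD, n = 8 each), with a difference of -0.37 ± 0.19 (adjusted p = 0.154). The other adenine nucleotide translocases, SLC25A5 (-0.14 ± 0.12) and SLC25A6 (0.13 ± 0.12), and the carnitine-acylcarnitine carrier SLC25A20 (-0.15 ± 0.12), which brings fatty acids into the matrix, were not called either.

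Both carriers of the malate-aspartate shuttle with a passing probe set were higher in psoas. The shuttle moves cytosolic reducing equivalents into mitochondria. SLC25A11, the oxoglutarate-malate carrier, had 9.01, 9.44 and 9.92 as lowest, median and highest value in diaphragm and 9.38, 9.89 and 10.26 in psoas, higher in 7 of 8 animals. Its difference was 0.43 ± 0.11 (adjusted p = 0.00852). SLC25A12, the aspartate-glutamate carrier, went from 10.41, 10.86 and 11.15 to 10.65, 11.15 and 11.32, with a difference of 0.28 ± 0.08 (adjusted p = 0.0182) and 7 of 8 animals higher. The second call was lost without animal 2, 5 or 6 (adjusted p from 0.0510 to 0.0548) and with the actin covariate (0.0913). Of the enzymes of the shuttle, the mitochondrial malate dehydrogenase gene MDH2 was lower in psoas (-0.42, adjusted p = 0.00217), and GOT1, GOT2 and MDH1, with differences of -0.05, -0.13 and -0.24, were not called.

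SLC25A39, needed for glutathione import into mitochondria, had 4.34, 5.12 and 6.02 as lowest, median and highest value in diaphragm and 5.36, 5.77 and 6.14 in psoas. Animal 4 alone was lower in psoas. The difference was 0.70 ± 0.20 (adjusted p = 0.0189), but 0.35 with the actin covariate (adjusted p = 0.0871), and the call was lost without animal 2 or 3 (0.0543 to 0.0701). SLC25A17, a peroxisomal carrier of cofactors, was 0.49 ± 0.17 higher (adjusted p = 0.0414), in 6 of 8 animals. That call was lost without animal 1, 2, 3, 4, 7 or 8 (0.0644 to 0.124), with animals as blocks (0.0525) and with the actin covariate (0.0681).

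Of the carriers higher in diaphragm, SLC25A37 (mitoferrin-1), which imports iron into mitochondria, had 5.72, 6.03 and 6.50 there and 5.48, 5.65 and 6.01 in psoas, lower in psoas in 8 of 8 animals. Its difference was -0.35 ± 0.09 (adjusted p = 0.0127). A second probe set of the gene disagreed, with 0.12 ± 0.15 and no call. SLC25A46, an outer membrane protein that acts in mitochondrial shape, was lower in psoas (-0.36, adjusted p = 0.0444) in 6 of 8 animals. So was SLC25A36, a pyrimidine nucleotide carrier (-0.46, adjusted p = 0.0464), in 7 of 8. The call of SLC25A46 was lost without animal 2, 3, 5, 6, 7 or 8 (0.0682 to 0.125) and that of SLC25A36 without animal 1, 2, 3, 5 or 6 (0.0546 to 0.117). With the actin covariate neither was called (0.0795 for SLC25A46 and 0.0672 for SLC25A36). SLC25A36 was also not called with arrays centred on their median (0.0503) or quantile normalized (0.0601).

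SLC25A30, a mitochondrial carrier related to the uncoupling proteins, was higher in psoas in 8 of 8 animals, with means of 7.74 ± 0.58 and 8.28 ± 0.35 (SD, n = 8 each). Its adjusted p was 0.0507, and 0.00306 with animals as blocks. SLC25A24, an ATP-magnesium and phosphate carrier, also passed only with the block (0.25, adjusted p = 0.0419). The remaining mitochondrial carriers were not called: SLC25A1, which exports citrate (-0.38), SLC25A21, which carries oxoadipate (-0.63), the glycine carrier SLC25A38 (0.28) and the pyrimidine nucleotide carrier SLC25A33 (0.11).

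Carriers of nucleosides and nucleotide sugars, which mostly serve the endoplasmic reticulum and Golgi, gave 3 probe sets higher in psoas and 1 higher in diaphragm out of 10. SLC35B1, which exchanges ATP for ADP across the endoplasmic reticulum membrane, was the 1 member whose arrays did not overlap between muscles, a property of 3.72% of all tested probe sets. Its lowest, median and highest values were 7.84, 8.23 and 8.29 in diaphragm and 8.40, 8.51 and 8.91 in psoas. The difference was 0.38 ± 0.08 (adjusted p = 0.00262). SLC35B2, which carries the sulfate donor PAPS into the Golgi, was 0.33 ± 0.09 higher in psoas (adjusted p = 0.0174), a call that was lost without animal 2 or 3 (0.0594 to 0.0679) and with the actin covariate (0.0731). SLC35F6 was 0.44 ± 0.11 higher (adjusted p = 0.00879), with means of 4.38 ± 0.32 and 4.82 ± 0.37 (SD, n = 8 each). Both were higher in 7 of 8 animals.

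SLC35F5 was lower in psoas. Its values were 9.68, 9.84 and 10.11 in diaphragm and 9.18, 9.40 and 9.79 in psoas, with a difference of -0.43 ± 0.10 (adjusted p = 0.00657). Animal 4 alone was higher in psoas. The second probe set of the gene gave -0.40 ± 0.16, lower in psoas in 8 of 8 animals, and passed only with animals as blocks (adjusted p = 0.0660 without and 0.0116 with it). The nucleoside carrier SLC29A1 (ENT1), SLC35A3, SLC35A4, SLC35D2 and the acetyl-CoA carrier SLC33A1 had differences between -0.21 and 0.14 and were not called.

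Among carriers of vitamins, lipids and organic ions, SLC22A3 (OCT3), a low-affinity carrier of monoamines and other organic cations, was lower in psoas. Its lowest, median and highest values were 4.52, 5.02 and 6.04 in diaphragm and 3.33, 3.90 and 4.56 in psoas. All 8 diaphragm arrays and 3 of 8 psoas arrays were at or above 4, and the ranges overlapped only from 4.52 to 4.56. The probe set thus passed the filter only through diaphragm. The fitted difference was -1.11 ± 0.23 (adjusted p = 0.00262), lower in psoas in 8 of 8 animals, and with psoas values under 4 set to 4 the level was at least 1.86-fold lower. The biotin and pantothenate carrier SLC5A6 (0.34, adjusted p = 0.0974) and both probe sets of the choline carrier SLC44A2 (-0.07 and 0.27) were not called.

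Of 9 metal carrier probe sets 1 was called. It was SLC41A1, a magnesium transporter, with means of 7.70 ± 0.42 in diaphragm and 7.16 ± 0.32 in psoas (SD, n = 8 each), a difference of -0.54 ± 0.18 (adjusted p = 0.0393) that 6 of 8 animals showed. Its second probe set gave -0.21 ± 0.10 and was not called. The call was lost without animal 2, 3, 4, 6 or 8 (0.0582 to 0.117) and with the actin covariate (0.0677). The zinc carriers SLC30A5 (both probe sets), SLC39A1 and SLC39A7, the iron carrier SLC11A2 (DMT1) and the copper carriers SLC31A1 and SLC31A2 had differences between -0.14 and 0.34 and were not called.

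SLC26A6, an anion exchanger for chloride, bicarbonate and oxalate, had a large but variable difference. Its lowest, median and highest values were 4.22, 5.76 and 7.09 in diaphragm and 5.85, 6.32 and 7.67 in psoas. Psoas was higher in 8 of 8 animals, and the difference was 0.98 ± 0.38 (adjusted p = 0.0680, and 0.00579 with animals as blocks). The scaffold genes SLC9A3R1 (0.52) and SLC9A3R2 (-0.02) and the transcription factor gene SLC2A4RG (-0.31) were not called.

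Across the 60 probe sets, 13 had the same sign in 8 of 8 animals, beside 21.4% of all tested probe sets, and 8 of these 13 were called. Of the 19 called probe sets, 8 stayed called when each animal was left out in turn and 11 did not. The 8 were those of SLC37A4 (second probe set), SLC2A12, SLC25A11, SLC35B1, SLC35F6, SLC35F5, SLC25A37 and SLC22A3. As SLC22A3 passed the filter only through diaphragm, it had to differ, and its staying called is no support. SLC2A5, which also passed only through diaphragm, was not among the 8: its adjusted p was between 0.0521 and 0.0601 without animal 2, 3 or 7. The first probe set of SLC37A4 was at 0.0554 to 0.0714 without animal 2, 3, 4 or 7. Without the filter on low values 9 of the 19 calls were lost (adjusted p from 0.0539 to 0.109), those of SLC6A8, SLC16A3, SLC41A1, SLC25A17, SLC25A36, SLC25A39, SLC25A46, SLC2A5 and the first probe set of SLC37A4. Without sex and feeding level as covariates 5 were lost (0.0560 to 0.0740), those of SLC25A12, SLC25A17, SLC25A36, SLC25A46 and SLC35F6. Calls also became fewer over all tested probe sets, of which the main fit called 1670 higher and 1424 lower in psoas. These counts were 1162 and 1081 without animal 2, and 1146 and 1016 without animal 3. They were 1350 and 1119 of 23999 without the filter, and 1414 and 1262 without covariates. How many single calls of other genes were lost was not counted.

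Genes that work with these carriers were taken from a list of 52, of which 37 were tested, with 8 higher and 3 lower in psoas, or 29.7% called beside 27.0% of all tested probe sets. ASNS, which makes asparagine, was higher in psoas, with 6.24 ± 1.07 in diaphragm and 7.99 ± 0.91 in psoas (SD, n = 8 each) and a difference of 1.75 (adjusted p = 0.0106), and ATF4, the amino acid response factor that drives it, was 0.52 higher (adjusted p = 0.0023). Both were higher in 8 of 8 animals. The lactate dehydrogenase gene LDHA was 0.18 higher (adjusted p = 0.0293), and LDHB had a difference of -0.47 (adjusted p = 0.0545) and was not called. STX4 was 0.28 higher and SNAP23 lower (-0.23), both membrane fusion proteins that act on GLUT4 vesicles. The others called were FTL (0.36), PRKAA2 (0.33) and CRAT (0.27), higher in psoas, and the outer membrane channel gene VDAC3 (-0.37).

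The second comparison was of restricted with high feeding, on the means of both muscles of each animal, with sex as a covariate. By limma no probe set of any gene was called (0 of 11467, or 0.0%), and 1451 (12.7%) had an unadjusted p under 0.05. Of the 60 solute carrier probe sets 0 were called and 6 had an unadjusted p under 0.05. Within diaphragm 0 were called and 8 of 60 had an unadjusted p under 0.05, beside 9.6% of all tested probe sets, and within psoas 0 and 8 of 60, beside 11.3%. The median difference over the solute carriers was -0.06, beside -0.02 over all tested probe sets, and the median SE was 0.16. The groups' animal means did not overlap at 3 of 60 probe sets, those of SLC31A2, SLC35F6 and the second probe set of SLC25A3, beside 5.97% of all tested probe sets.

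**Figure D3:**
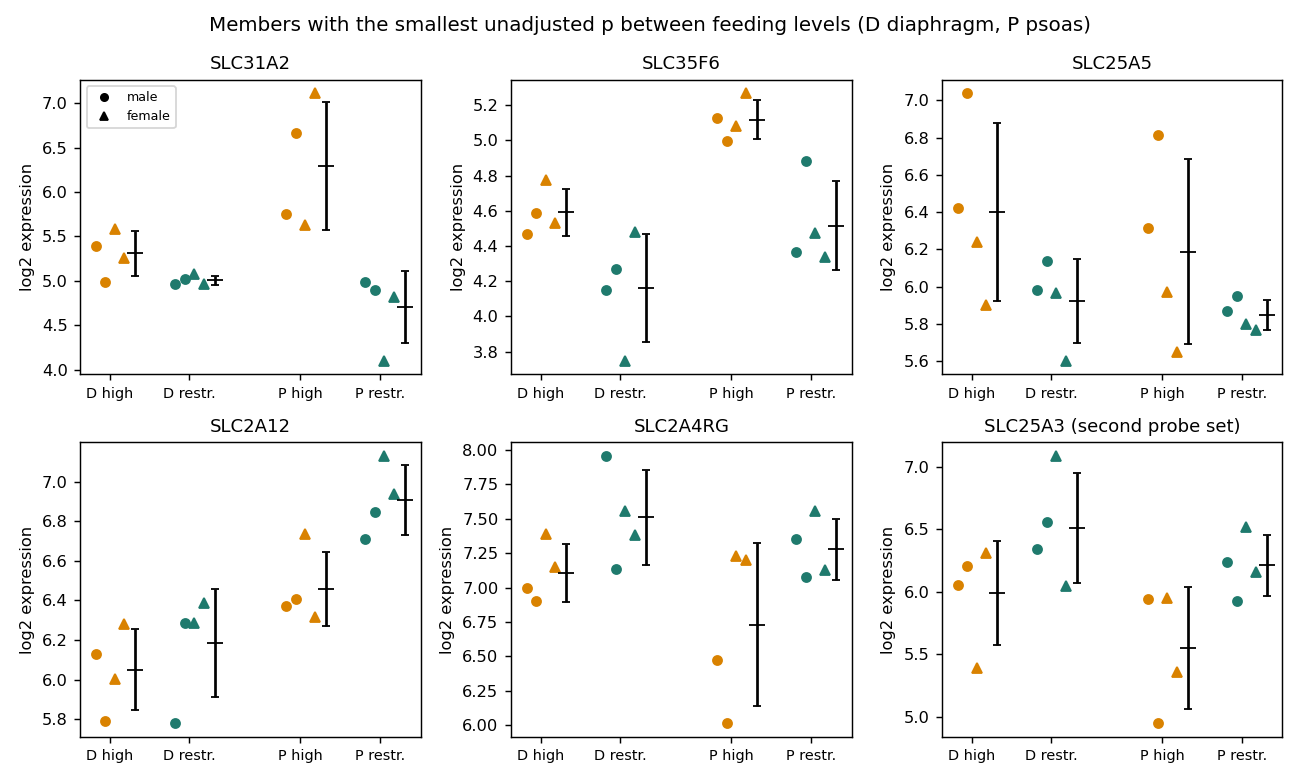
Log2 expression of the 6 solute carrier probe sets with an unadjusted p under 0.05 between feeding levels, by muscle (D diaphragm, P psoas) and feeding level, with 1 symbol per array (circles males, triangles females) and the mean ± SD of 4 arrays beside them. None was called, and the psoas arrays of SLC31A2 and SLC35F6 do not overlap between feeding levels.

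SLC31A2, a copper carrier related to the high-affinity copper importer and found mainly in inner membranes, had the smallest p of the set. In psoas the animals on high feeding (1, 4, 6 and 7) had values of 5.75, 6.67, 5.63 and 7.12. The restricted animals (2, 3, 5 and 8) had 4.98, 4.90, 4.10 and 4.82. The groups did not overlap in psoas, as at 2 of 60 solute carrier probe sets, beside 4.98% of all tested. The psoas difference was -1.59 ± 0.37, and its adjusted p was 0.321. In diaphragm the means were 5.31 ± 0.25 and 5.005 ± 0.05 (SD, n = 4 each), a difference of -0.30 with overlapping groups. Over both muscles the difference was -0.95 ± 0.16 (adjusted p = 0.279), and the test of whether the feeding difference depended on muscle gave -1.29 ± 0.43 (adjusted p = 0.761). The other copper carrier, SLC31A1, was not called in any of these.

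The psoas arrays of animals 4 and 7, the highest for SLC31A2, were also the highest psoas arrays for SLC9A3R1 (7.002 and 6.26) and for SLC26A6 (7.67 and 7.45). The other 6 psoas arrays lay between 4.65 and 5.32 for SLC9A3R1. The psoas array of animal 7 had the largest actin gap of the psoas arrays (3.85). Next came animal 5 (3.71), which had the lowest psoas value of SLC31A2 (4.10), and then animal 4 (3.56). The part of array quality in the SLC31A2 values was not tested.

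SLC35F6 had values of 5.13, 4.998, 5.08 and 5.27 in psoas on high feeding and 4.36, 4.88, 4.47 and 4.34 under restriction. The groups did not overlap there. Over both muscles its difference was -0.52 ± 0.12 (adjusted p = 0.279), with -0.43 in diaphragm and -0.60 in psoas. Its diaphragm values also separated the animals by the actin gap. SLC25A5 (-0.41, adjusted p = 0.374) and SLC35A4 (-0.29, adjusted p = 0.402) were the next in that direction, and their groups overlapped.

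In the other direction, the second probe set of SLC25A3 had a difference of 0.59 ± 0.17 (adjusted p = 0.286), with animal means of 5.58 to 5.997 on high feeding and 6.10 to 6.80 under restriction. The first probe set of the same gene had overlapping groups and was not called. SLC2A12 had a difference of 0.29 ± 0.10 (adjusted p = 0.330), with psoas values of 6.37, 6.40, 6.73 and 6.32 on high feeding and 6.71, 6.84, 7.13 and 6.94 under restriction, which overlapped at animal 6. SLC2A4RG (0.48, adjusted p = 0.353) and SLC25A33 (0.35, adjusted p = 0.462) followed.

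Within diaphragm the groups did not overlap at 4 of 60 probe sets, beside 4.88% of all tested. They were SLC25A21 (8.31 ± 0.21 on high feeding and 8.94 ± 0.16 under restriction), SLC25A17 (6.36 ± 0.19 and 6.68 ± 0.06), SLC9A3R2 (5.89 ± 0.29 and 5.32 ± 0.23) and SLC35B1 (SD, n = 4 each). None was called. The smallest adjusted p of any solute carrier was 0.472 in diaphragm, for SLC25A21 (0.62 ± 0.14). The other diaphragm differences with the smallest p were SLC3A1 (0.49) and SLC2A4RG (0.40) above 0, and SLC25A1 (-0.32), SLC25A5 (-0.48) and SLC35F6 (-0.43) below 0. In psoas they were SLC2A12 (0.45), the second probe sets of SLC44A2 (0.49) and SLC25A3 (0.66) and SLC2A4RG (0.55) above 0, and SLC31A2, SLC35F6, SLC35A4 (-0.28) and SLC25A5 (-0.34) below 0.

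**Figure D4:**
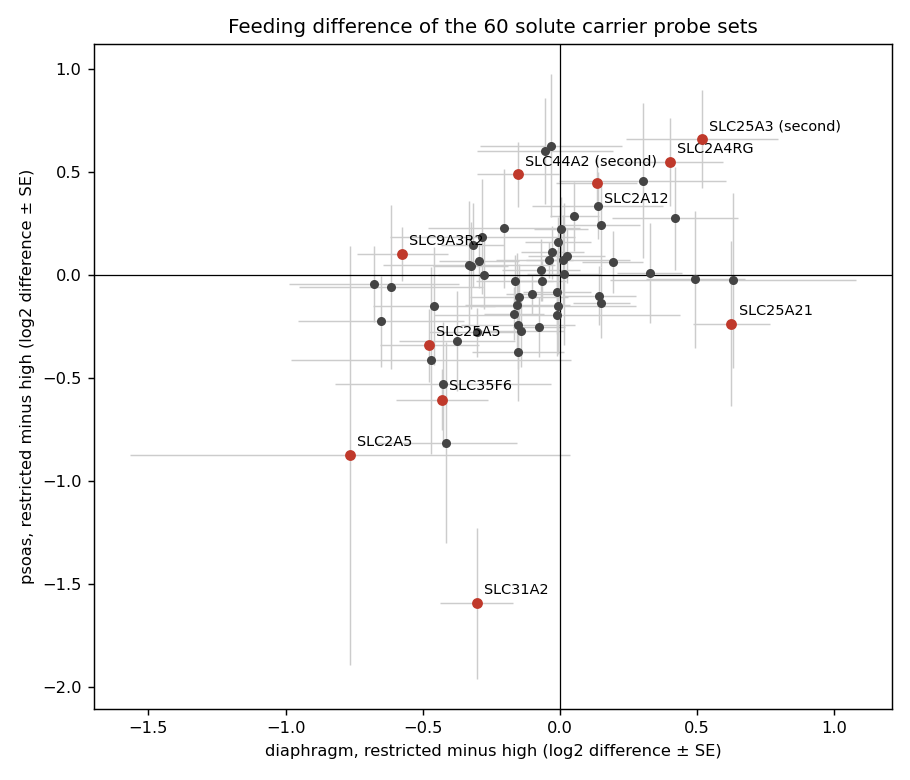
Restricted minus high feeding difference of each of the 60 solute carrier probe sets in diaphragm (horizontal axis) and in psoas (vertical axis), in log2 units with SE bars, with SLC2A5 and 9 others labelled in red. SLC31A2 lies farthest from 0, at -0.30 and -1.59, and no point was called in either muscle.

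Whether the muscle difference of the carriers depended on feeding level was tested on the psoas minus diaphragm difference of each animal. No probe set was called by limma (0 of 11467, or 0.0%), and 5 of the 60 solute carriers had an unadjusted p under 0.05, beside 6.07% of all tested. SLC37A4 (second probe set) was 0.93 higher in psoas on high feeding and 1.59 higher under restriction. SLC16A3 was 0.61 and 1.17 higher, and SLC2A5 differed by -2.25 and -2.36. The smallest p was that of the second probe set of SLC44A2, with muscle differences of -0.05 on high feeding and 0.59 under restriction (adjusted p = 0.754). SLC9A3R2 (0.68), SLC25A39 (0.64) and SLC25A30 (0.43) above 0, and SLC31A2, SLC25A21 (-0.86), SLC2A3 (-0.66) and SLC3A1 (-0.51) below 0, were the others with the smallest p in each direction.

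The last comparison was of females with males, on animal means with feeding level as a covariate. Of all tested probe sets 0.183% (21) were called, 0.0959% higher and 0.0872% lower in females. No solute carrier was called, 0 of 60 by limma, and 10 of 60 had an unadjusted p under 0.05, beside 9.17% of all tested. Below 0, the smallest p were those of the malate-aspartate shuttle carriers SLC25A12 (-0.31 ± 0.08, adjusted p = 0.307) and SLC25A11 (-0.30 ± 0.11, adjusted p = 0.473), then SLC25A5 (-0.45) and SLC25A21 (-0.48). Above 0 were the second probe sets of SLC37A4 (0.58) and SLC44A2 (0.36), SLC2A4RG (0.34) and SLC2A12 (0.22). Without animal 1, SLC2A3 was called, with a female minus male difference of 0.77 (adjusted p = 0.0404).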

How the data were processed

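The authors deposited 1 table of log2 expression values, summarised with GCRMA according to the submitters' processing notes. The sources used here give neither a version nor whether the arrays were handled jointly. GCRMA equalises arrays and compresses low values. High values may be compressed too, which was not tested. The deposited log2 values were used unscaled, and the number of arrays limits the precision.

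Gene names came from the platform annotation: 10099 of 24123 probe sets had 1 symbol, 198 several and 13826 none. Of the 176 solute carrier probe sets, 174 had a gene identifier in RefSeq (assembly Sscrofa11.1), none with a changed symbol. The 124 control probe sets were left out. Probe sets at or above 4 in at least 4 arrays were fitted with limma 3.58.1 in R 4.3.3 and adjusted by Benjamini-Hochberg over all 11467. The fit was also run on simulated data with independent arrays. That run does not cover the pairing of arrays by animal.

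Muscles were compared over 16 arrays, adjusting for sex and feeding level. Feeding and sex were compared on 8 animals, the mean of both arrays each, and within muscles on 8 arrays. Nothing in the labels names litters or pens, so the feeding and sex p-values measure the spread between these animals. The main muscle p-values measure the spread between the 16 arrays, with the pairing of an animal's arrays left out of the fit.

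Both arrays of an animal are paired by the labels' animal numbers. Residuals of the pair correlated at 0.0724 to 0.257 in the 8 animals. Blocked values stand beside results whose call they change.

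Named were called members with 1 sign in 8 of 8 animals, the members of the carrier list, the 8 highest in level, those nearest the threshold, and, for feeding and sex, the 4 per direction with the smallest p. Other members were named after their values were seen. Members and lists were chosen with earlier results of these data known. Alternatives were other filters, scalings, covariates and variance models, and leaving out animals.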

Additional observations from a re-analysis of the deposited data

Results flagged for a closer look

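Within groups of 4 or 8 arrays, 1 array stood far from the others, by its gap over the range of the group, in 5 of the 94 groups of named solute carriers examined. Chance gives about 1 in 20 groups, so that this many is near what chance gives. SLC25A12 had its lowest psoas value, 10.65, in animal 7, with the other 7 between 11.02 and 11.32. SLC35B1 had its lowest diaphragm value, 7.84, in animal 2, with the others between 8.13 and 8.29. SLC7A1 had its lowest diaphragm value, 5.60, in animal 8, with the others between 6.55 and 7.39. Among the 4 restricted diaphragm arrays, SLC25A33 was highest in animal 3, at 4.66, with the others between 3.70 and 3.82. Among the same arrays SLC2A12 was lowest in animal 2, at 5.78, with the others between 6.29 and 6.39.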

How the results depend on the processing

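The differences followed over the alternatives were those of called members, of the carrier list and, outside the muscle comparison, of the smallest p. Of these, 1 changed sign: that of SLC2A3 between muscles, not called in either fit, was 0.0595 in animals 4, 6, 7 and 8 alone. Differences of other members, such as those near 0 of SLC3A1 and SLC9A3R2 between muscles, were not followed. The count of members higher in psoas, 12, was 7 without the filter on low values and 2 in animals 4, 6, 7 and 8 alone, and ranged from 5 (without animal 2) to 13 (without animal 1) when 1 animal was left out. The count higher in diaphragm, 7, was 3 without the filter, 4 with the actin gap as a covariate and 0 in animals 4, 6, 7 and 8 alone, and ranged from 3 (without animal 2 or 3) to 7. Over all tested probe sets the main fit called 1670 higher and 1424 lower in psoas. These counts were 1350 and 1119 without the filter, and 1253 and 1120 with the actin gap as a covariate. They were 1506 and 1362 without animal 1, 1162 and 1081 without animal 2, and 1146 and 1016 without animal 3. In animals 4, 6, 7 and 8 alone 175 probe sets of any gene were called higher and 230 lower in psoas. That fit had fewer samples, and its animals also had the smaller diaphragm actin gaps and another balance of sex and feeding level. The cause of the changed counts was not tested for this or any other setting. With the replicate block, the animal, 14 members were higher in psoas and 9 in diaphragm, beside 2025 and 1811 of all tested probe sets. With 1 probe set per gene, chosen after seeing the data, the counts were 11 and 7. The feeding counts, and the count for whether the muscle difference depended on feeding level, were 0 under every alternative, the block included where it was run. The count by sex was 0 or, without animal 1, 1. Low values, such as the 5 psoas values below 4 of SLC22A3 and of SLC2A5, are limited by signal over background.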

Other observations

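Some of the 60 probe sets varied far more between arrays than most tested probe sets. The residual SD, after muscle, sex and feeding level were fitted as separate terms, had a median of 0.24 over all tested probe sets. It was 1.47 for SLC2A5, 0.84 for SLC26A6, 0.74 for SLC2A3, 0.64 for SLC9A3R1 and 0.61 for both SLC16A3 and SLC29A1.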
